A study of Tupaia belangeri chinensis with 36 samples.

Results

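At embryonic day 28 (E28), the inner subventricular zone (ISVZ) of the fetal Chinese tree shrew cortex was compared with the ventricular zone (VZ) directly beneath it. The comparison used all 4 libraries that the labels assign to these layers at E28, 2 of the ISVZ and 2 of the VZ, of the 36 libraries of the series. The animals were Tupaia belangeri chinensis with no genetic change or treatment in the labels, and embryonic age was counted by the study from the day on which a mated pair was separated. Each library was made from tissue cut out of Nissl-stained frozen sections with a laser, so a library holds the RNA of every cell in the cut area, and fewer cells of a type cannot be told apart from less RNA per cell. The series holds further layers at E28, which are the outer subventricular zone (OSVZ), intermediate zone (IZ), cortical plate (CP) and marginal zone (MZ), and layers of E37 and E42. The labels do not say whether the 2 libraries of a layer came from separate animals, so the p-values below measure a spread between libraries only. That spread was estimated over 35 libraries in 18 groups of layer and stage, and not from these 4 libraries alone.

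The VZ lines the ventricle and holds apical radial glia, which divide at the ventricular surface and are the founding progenitors of cortical neurons. Their daughters leave the VZ and gather in the subventricular zone, where intermediate progenitors divide before they give rise to neurons, and newborn neurons pass through on the way to the CP. Inhibitory interneurons are born outside the cortex, in the ganglionic eminences, and enter it along tangential routes that include the subventricular zone and the MZ.

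The annotated features that were counted are of several kinds. TSDBGID features carry a number and no gene symbol, and they took 97.73% and 98.23% of the counts in the ISVZ libraries and 98.52% and 98.25% in the VZ libraries. LINC features (LINC-SYMBOL-n) and AS features (SYMBOL-AS-n) carry a gene symbol, but the rule by which a symbol was attached is not given in the sources used here. A LINC or AS feature is therefore a noncoding transcript that bears the name of a gene, and its level is not the level of that gene. The strand setting of the counting is not given either, so reads of an antisense feature and of the gene it overlaps cannot be told apart. Coding markers of the 2 layers were not analysed here, since the TSDBGID numbers could not be matched to symbols. Levels are given as counts per 1000000 counts of a library (CPM), scaled by edgeR's TMM factors, and they are compared between libraries and not between features, whose lengths were not used.

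Counts on features summed to 30187502 and 33954220 in ISVZ replicates 1 and 2, and to 31559290 and 40226474 in VZ replicates 1 and 2, against 20896997 to 40226474 over the 12 libraries of E28. ISVZ replicate 1 stood apart, with 49.17% of its reads on features against 57.94% to 58.18% in the other 3 libraries. VZ replicate 2 of E28 and VZ replicate 2 of E42 held identical counts in all 76871 features. They were counted as 1 library and kept under the E28 label, and the E42 VZ is 1 library throughout. Which of the 2 stages this library came from is not known, and it is 1 of the 2 VZ libraries of E28.

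Of 26858 features that passed the filter on low counts, 1193 (4.44%) differed between the ISVZ and VZ at a Benjamini-Hochberg adjusted p under 0.05 in edgeR's quasi-likelihood test. The ISVZ was higher in 805 of them (3% of the features tested) and lower in 388 (1.44%). The size of the difference was also uneven, and the median log2 fold change was 1.78 among the features higher in the ISVZ and −1.17 among those lower. The difference exceeded 1 on the log2 scale in 634 of the 805 and in 241 of the 388. TSDBGID features made up most of the calls, with 720 higher (4.53% of 15911 tested) and 376 lower (2.36%). Among 10836 LINC and AS features, 84 were higher (0.775%) and 12 lower (0.111%), and the remaining call was NA-991-1, a feature without a symbol that was higher in the ISVZ. The 2 libraries of one layer both lay above the 2 of the other in 802 of the 805 and in 382 of the 388, against 40.7% of all features tested. These calls treat the libraries as unpaired. With the replicate number as a block, 2244 features (8.36%) were called, 1366 higher (5.09%) and 878 lower (3.27%). Leaving out ISVZ replicate 1 left 553 calls, 483 higher and 70 lower, and leaving out VZ replicate 1 left 663, 498 higher and 165 lower. Without VZ replicate 2, the library deposited under both stages, 700 were called (460 higher, 240 lower), and with it kept under both labels 773 were called (582 higher, 191 lower).

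**Figure D1:**
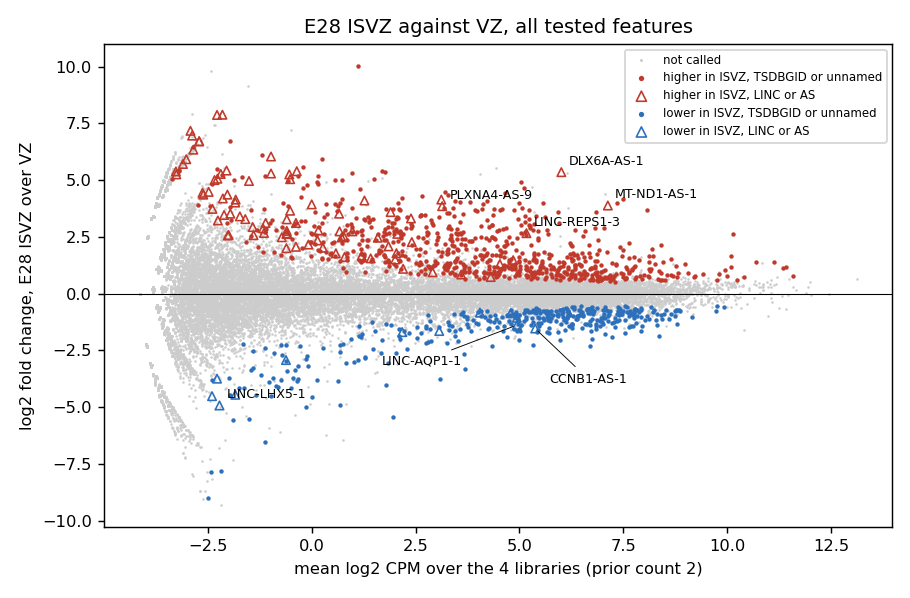
Log2 fold change of ISVZ over VZ at E28 (vertical axis) against the mean log2 CPM of the 4 libraries (horizontal axis) for the 26858 features tested, 1 point each. Red marks the 805 features higher in the ISVZ, blue the 388 lower and grey the rest, and open triangles are LINC and AS features. The red points reach larger changes than the blue at most levels, and DLX6A-AS-1 stands at 5.35.

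Among the LINC and AS features higher in the ISVZ, DLX6A-AS-1 was the one with both a large change and many reads. DLX6A is the form of the symbol DLX6 used in fish, and DLX6 is a homeobox gene of the distal-less family, which acts in the development of GABAergic neurons. DLX6A-AS-1 measured 552 and 296 CPM in the ISVZ and 12.4 and 8.41 CPM in the VZ, a log2 fold change of 5.35 (SE 0.89, edgeR adjusted p = 0.00097). Both ISVZ libraries were far above both VZ libraries, and the OSVZ, with 67.5 and 39.3 CPM, and the MZ, with 115 and 70.1 CPM, lay between them. It stayed called in each of the 13 alternatives to the fit.

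Other features with symbols of GABAergic neuron genes were also higher in the ISVZ. Of 133 features whose symbols stand on the list of interneuron genes, 94 had no count in any of the 4 libraries and 24 passed the filter, of which 6 were called higher and 0 lower in edgeR's test. At an unadjusted p under 0.05 edgeR gave 10 higher and 0 lower, and the DESeq2 Wald test called 6 higher and 0 lower. Over all 26858 features tested, 3705 had an unadjusted p under 0.05 in edgeR, in either direction. DESeq2 called 118 of all 10836 LINC and AS features higher and 23 lower. The edgeR calls include DLX5-AS-1, GAD1-AS-1, GAD2-AS-1, LHX6-AS-1 and LHX6-AS-2, and 0.775% of all LINC and AS features were called in this direction. The median log2 fold change of the 24 was 2.5, against a median of 0 over all LINC and AS features tested. It was above 0 in 19 of the 24. Those below 0 included LINC-NR2F1-2 at −0.68 and LINC-NPY-1 at −0.55, which were not called. DLX6A-AS-1 was not on the list because of its spelling, and LINC-SLC32A1-1 stood on the list of solute carriers. The 2 were placed beside the list after their values were seen.

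DLX5-AS-1, named for another distal-less homeobox gene, measured 3.89 and 2.65 CPM in the ISVZ and 0.0638 and 0.124 CPM in the VZ, a log2 fold change of 5.04 (SE 0.81, adjusted p = 9.9e-05). Its ISVZ libraries did not overlap its VZ libraries, and its call stayed in each of the 13 alternatives. GAD1 and GAD2 encode the enzymes that make the inhibitory transmitter GABA. GAD2-AS-1 measured 5.15 and 2.31 CPM in the ISVZ against 0.0319 and 0.148 CPM in the VZ (log2 fold change 5.25, SE 1.21, adjusted p = 0.0086). GAD1-AS-1 measured 0.505 and 0.822 CPM in the ISVZ against 0 and 0.0247 CPM in the VZ (log2 fold change 5.27, SE 1.05, adjusted p = 0.0016). SLC32A1 encodes the transporter that loads GABA into vesicles. LINC-SLC32A1-1 measured 5.77 and 3.01 CPM in the ISVZ and 0.191 and 0.0247 CPM in the VZ (log2 fold change 5.39, SE 0.91, adjusted p = 0.00024), and its call stayed in each of the 13 alternatives. In each of these features both ISVZ libraries lay above both VZ libraries, as in 802 of the 805 features called higher. In either direction, 40.7% of all features tested and 2956 of the 10836 LINC and AS features had no overlap between the layers.

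LHX6 encodes a LIM homeobox factor of interneurons from the medial ganglionic eminence. LHX6-AS-1 and LHX6-AS-2 had no count in either VZ library, and they were uneven within the ISVZ. LHX6-AS-1 measured 1.01 and 0.0304 CPM in the ISVZ, at least 11.5-fold higher than the VZ, where 0 counts were set to 3 over the group. LHX6-AS-2 measured 0.829 and 0.0609 CPM, at least 9.87-fold higher. In ISVZ replicate 2 the 2 features had 1 and 2 counts. Most of their ISVZ signal came from replicate 1, and neither was called when it, or either VZ library, was left out.

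Summed over the 133 features of the interneuron list, the ISVZ libraries held 21.5 and 11 CPM and the VZ libraries 6.19 and 3.12 CPM. The OSVZ held 9.02 and 4.83 CPM, the IZ 13.9 and 10.7 CPM, the CP 4.1 and 6.17 CPM and the MZ 29 and 31.8 CPM. Thus the MZ, and not the ISVZ, had the highest sum at E28, and the ISVZ exceeded the layers on both of its sides and overlapped the IZ. The number of list members called moved with single libraries. It was 2 without ISVZ replicate 1, 6 without ISVZ replicate 2, 1 without VZ replicate 1 and 2 without VZ replicate 2, and it was 7 with the replicate block.

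**Figure D2:**
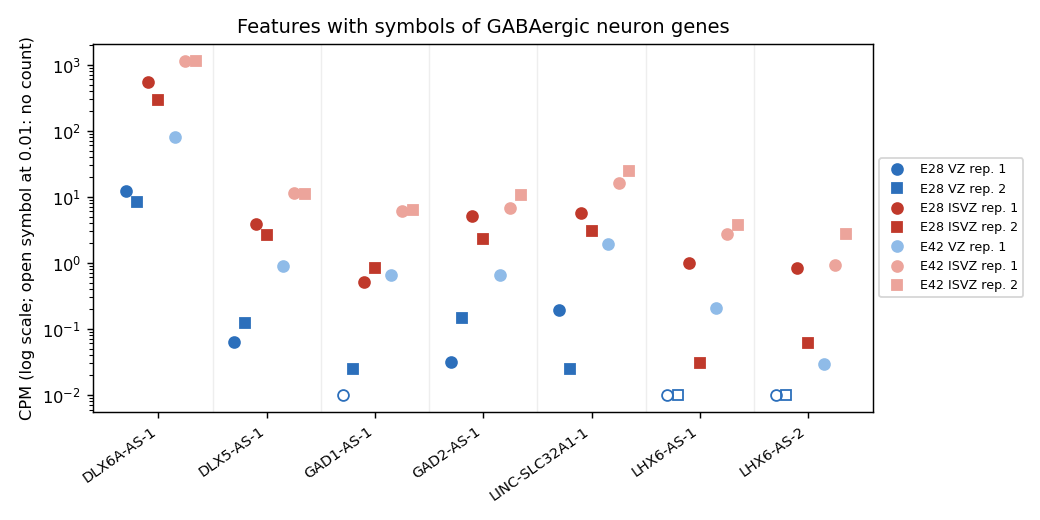
CPM (log axis) of 7 LINC and AS features with symbols of GABAergic neuron genes in each VZ (blue) and ISVZ (red) library, with E28 in dark and E42 in light colours, circles for replicate 1 and squares for replicate 2. Open symbols at 0.01 stand for no count. All 7 features were called higher at E28, so they do not stand for the whole list. In all 7 both E28 ISVZ libraries lie above both E28 VZ libraries, as in 802 of the 805 features called higher. In either direction, 40.7% of all features tested and 2956 of the 10836 LINC and AS features had no overlap between the layers at E28. Both E42 ISVZ libraries lie above the E42 VZ library in all 7 features.

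Lists of the progenitors and neurons of the 2 layers held at most 1 call each, against 0.775% of all LINC and AS features called higher and 0.111% called lower. An unadjusted p under 0.05 in edgeR was found for 3705 of all 26858 features, in either direction. DESeq2 called 118 of 10836 LINC and AS features higher and 23 lower. On the list of intermediate progenitor genes, 21 of 97 features passed the filter, and 1 was called higher and 0 lower in edgeR (4 and 0 at an unadjusted p under 0.05, 2 and 0 in DESeq2). The edgeR call was TBC1D1-AS-1, named for a regulator of glucose transporter traffic, at 0.613 and 1.04 CPM in the ISVZ and 0.0319 and 0.124 CPM in the VZ (log2 fold change 3.28, SE 0.77, adjusted p = 0.0085). LINC-SSTR2-2, named for a somatostatin receptor, measured 4.11 and 4.93 CPM in the ISVZ against 0.574 and 0.569 CPM in the VZ, and its adjusted p of 0.053 in edgeR missed the threshold. NEUROG1-AS-1, named for a proneural factor, had the opposite order, with 13.6 and 12.7 CPM in the ISVZ and 32.6 and 26.1 CPM in the VZ (adjusted p = 0.59). The median log2 fold change over the 21 was 1.12. The summed CPM of all 97 features had the opposite order, with 23.7 and 26.2 in the ISVZ and 36.3 and 31.2 in the VZ. NEUROG1-AS-1 made up most of the VZ sum, and the remainder was higher in both ISVZ libraries than in either VZ library.

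The list of apical radial glia genes had 51 features tested of 182, and 0 were called in either direction by edgeR, and their median log2 fold change was −0.37. At an unadjusted p under 0.05 there was 1 in each direction, and DESeq2 called 1 higher, as did edgeR with the replicate block. The unadjusted count over all 26858 features was 3705, and DESeq2 called 118 of 10836 LINC and AS features higher and 23 lower. The features named for SOX2, a factor of neural progenitors, had no common direction, with log2 fold changes of −1.26 for LINC-SOX2-3, −0.03 for LINC-SOX2-1, 0.38 for LINC-SOX2-6, 0.5 for LINC-SOX2-4 and 0.56 for LINC-SOX2-2. Of 34 features on the list of basal radial glia genes, 0 were called higher and 1 lower in edgeR, with 1 in each direction at an unadjusted p under 0.05 and 1 lower in DESeq2, and the median was −0.75. ITGB5-AS-3, named for an integrin subunit, was that call, at 0.108 and 0.335 CPM in the ISVZ and 1.05 and 2.42 CPM in the VZ (log2 fold change −2.93, SE 0.84, adjusted p = 0.045). It was also the 1 call among 57 extracellular matrix features, against 0.111% of all LINC and AS features called lower. It measured 0.0345 CPM or less in every library of the OSVZ, IZ, CP and MZ at E28.

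On the neuronal lists, 1 of 64 features of migrating and newborn neurons and 1 of 51 of CP neurons were called, both higher. Of all LINC and AS features, 0.775% were called higher. LINC-NEUROD2-1, named for a neuronal differentiation factor, measured 0.433 and 0.731 CPM in the ISVZ and 0.0638 and 0 CPM in the VZ (log2 fold change 4.19, SE 1.09, adjusted p = 0.02). Its levels were higher still in the OSVZ, at 4.65 and 5.93 CPM, and in the IZ, at 6.09 and 6.46 CPM. LINC-MEF2C-1, named for a MADS-box factor of cortical neurons, measured 1.12 and 0.609 CPM in the ISVZ and 0.0638 and 0.148 CPM in the VZ (log2 fold change 2.93, SE 0.61, adjusted p = 0.0024).

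Among families of genes with roles in neurons, 3 of 88 axon guidance features (3.41%, against 0.775% of all LINC and AS features) were called higher and 0 lower in edgeR (10 and 0 at an unadjusted p under 0.05, 2 and 0 in DESeq2). The unadjusted count over all 26858 features was 3705 in either direction, and DESeq2 called 118 of 10836 LINC and AS features higher. PLXNA4 encodes a plexin, a receptor for semaphorins. PLXNA4-AS-9 measured 32.1 and 34.2 CPM in the ISVZ and 2.36 and 2.23 CPM in the VZ, and its log2 fold change of 3.85 (SE 0.32, adjusted p = 4.1e-09) stayed between 3.79 and 3.9 in the 13 alternatives. The replicates of each layer were close together, and the OSVZ was higher again, at 103 and 149 CPM. LINC-PLXNA2-1, with no count in either VZ library, measured 0.252 and 0.487 CPM in the ISVZ, at least 9.08-fold higher. LINC-SEMA6D-12, named for a transmembrane semaphorin, measured 0.396 CPM in both ISVZ libraries and 0.0319 and 0 CPM in the VZ (log2 fold change 4.48, SE 1.15, adjusted p = 0.018).

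Of 111 voltage-gated channel features 2 (1.8%) were called higher, KCNQ3-AS-6 and SCN3A-AS-2, which are named for a potassium and a sodium channel. KCNQ3-AS-6 measured 1.12 and 1.4 CPM in the ISVZ and 0.223 CPM in both VZ libraries (log2 fold change 2.48, SE 0.5, adjusted p = 0.0018). SCN3A-AS-2 measured 0.36 and 0.639 CPM against 0.0638 and 0.0247 CPM (log2 fold change 3.46, adjusted p = 0.024). CADM1-AS-1 was the 1 call of 70 synaptic adhesion features (1.43%), at 2.6 and 1.28 CPM against 0.574 and 0.297 CPM. LINC-SLC16A7-1, named for a monocarboxylate transporter, was called with LINC-SLC32A1-1 among 190 solute carrier features (1.05%), at 1.15 and 1.61 CPM in the ISVZ and 0 and 0.0742 CPM in the VZ (log2 fold change 4.96, adjusted p = 0.00024). ZNF638-AS-1 was the 1 call of 309 zinc finger features (0.324%, under the share of 0.775% over all LINC and AS features), at 3.32 and 2.65 CPM against 0.702 and 1.24 CPM. KCNQ3-AS-6, SCN3A-AS-2, CADM1-AS-1, LINC-SLC16A7-1, LINC-SLC32A1-1 and ZNF638-AS-1 all lay higher in both ISVZ libraries than in either VZ library. The same held for 802 of the 805 features called higher. In either direction, 40.7% of all features tested and 2956 of the 10836 LINC and AS features had no overlap between the layers.

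No feature was called by edgeR on the lists of the Notch pathway (0 of 26), the Wnt pathway (0 of 35), FGF, BMP and hedgehog signalling (0 of 49), cadherins (0 of 62), SOX genes (0 of 44), microglia (0 of 4), vascular cells (0 of 10) or glia (0 of 22). Together these 8 lists held 245 different features tested, of which 13 had an unadjusted p under 0.05 in edgeR, and DESeq2 called 2. Over all 26858 features the unadjusted count was 3705, and DESeq2 called 118 of 10836 LINC and AS features higher and 23 lower. With the replicate block edgeR called 4 of them higher and 1 lower, on the SOX, Wnt, cadherin and vascular lists. The summed CPM of the microglia list was nonetheless 13.6 and 8.22 in the ISVZ and 4.34 and 6.31 in the VZ, and that of the vascular list 0.793 and 0.761 in the ISVZ and 0.128 and 0.297 in the VZ. Both sums were higher in the 2 ISVZ libraries. Most of the microglia sum was LINC-PTPRC-4, at 12.9 and 7.46 CPM in the ISVZ and 3.48 and 4.99 CPM in the VZ (adjusted p = 0.28 in edgeR). LINC-PTPRC-6 and LINC-PTPRC-7 had log2 fold changes of −0.96 and −0.63, and the median of the microglia list was −0.08. Which features microglia or vascular cells contributed to was not tested.

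Outside the lists, the features with the most reads included LINC-REPS1-3 and MT-ND1-AS-1, which differed in how well replicates matched. REPS1 encodes a protein of endocytosis. LINC-REPS1-3 measured 93.9 and 87.3 CPM in the ISVZ and 14.2 and 14.4 CPM in the VZ, a log2 fold change of 2.66 (SE 0.28, adjusted p = 1.1e-07) that ranged from 2.61 to 2.7 over the 13 alternatives. The OSVZ was at 266 and 273 CPM and the MZ at 56.7 and 91.7 CPM. MT-ND1-AS-1, which bears the name of a mitochondrial subunit of respiratory complex I, measured 1630 and 79 CPM in the ISVZ and 38.7 and 77.1 CPM in the VZ. Its call (log2 fold change 3.88, SE 0.92, adjusted p = 0.019) was lost without ISVZ replicate 1, the library with the smallest share of reads on features, and when either VZ library was left out, and its log2 fold change was 0.45 at the lowest among the alternatives. FARP1-AS-1 and LINC-ARHGAP24-1, both named for regulators of small GTPases, were higher by 1.3 and 1.47 on the log2 scale (SE 0.26 and 0.3, adjusted p = 0.0014 and 0.0025).

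CXCL12 encodes a chemokine that guides migrating interneurons and Cajal-Retzius cells. CXCL12-AS-1 measured 0.793 and 0.883 CPM in the ISVZ with no count in either VZ library, at least 20.1-fold higher. It was at 0.275 and 1.65 CPM in the OSVZ and at 0.161 and 1 CPM in the IZ. In each library of the CP and MZ it was at or below 0.164 CPM. TRDN-AS-1 measured 1.33 and 0.335 CPM in the ISVZ with no VZ count, at least 19-fold higher. TYW5-AS-1, at 0.505 and 0.244 CPM, was at least 8.69-fold higher than the VZ. LINC-MFAP1A-11 measured 1.51 and 4.38 CPM in the ISVZ and 0.0319 and 0.0495 CPM in the VZ, and LINC-MPPED2-5 measured 0.829 and 0.7 CPM against 0.0319 and 0 CPM. These levels were low. No ISVZ library of these 5 features overlapped a VZ library, which was also so in 802 of the 805 features called higher. In either direction, 40.7% of all features tested and 2956 of the 10836 LINC and AS features had no overlap between the layers.

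Only 12 LINC and AS features were lower in the ISVZ, that is, higher in the VZ. CCNB1 encodes cyclin B1, which drives entry into mitosis. CCNB1-AS-1 measured 24.4 and 24.5 CPM in the ISVZ and 61.5 and 80.4 CPM in the VZ, a log2 fold change of −1.54 (SE 0.36, adjusted p = 0.0075), and it stood lower still in the OSVZ, at 10.4 and 9.61 CPM, and in the CP, at 0.533 and 0.297 CPM. It was the 1 call among 33 cell cycle features tested, against 0.111% of all LINC and AS features called lower. Over all 133 features of that list the summed CPM was 94.7 and 121 in the VZ and 43.1 and 54.3 in the ISVZ. Most of the VZ sum was CCNB1-AS-1 itself, and the other 132 features summed to 33.2 and 40.2 CPM in the VZ and 18.7 and 29.8 CPM in the ISVZ. CCNB2-AS-2, named for cyclin B2, measured 8.67 and 11.3 CPM in the VZ and 3.64 and 5.78 CPM in the ISVZ and missed the threshold (adjusted p = 0.23 in edgeR).

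AQP1 encodes a water channel that the choroid plexus expresses strongly. LINC-AQP1-1 measured 58.5 and 41.3 CPM in the VZ and 19.5 and 18.5 CPM in the ISVZ (log2 fold change −1.39, SE 0.39, adjusted p = 0.038). Its mean at E28 was highest in the VZ, but the CP, at 51.6 and 21.5 CPM, and the IZ, at 44.8 and 28.3 CPM, overlapped the VZ. It was the 1 call among 8 tested features of the choroid plexus and ependyma list, against 0.111% of all LINC and AS features called lower. Over the 42 features of that list the summed CPM was 69.4 and 58.1 in the VZ and 21.6 and 28.1 in the ISVZ. LINC-AQP1-1 made up most of each sum, and the other 41 features summed to 11 and 16.8 CPM in the VZ and 2.05 and 9.56 CPM in the ISVZ. The part of choroid plexus or ependymal cells in the VZ libraries was not tested.

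LHX5 encodes a LIM homeobox factor of the cortical hem and of Cajal-Retzius cells. LINC-LHX5-1 measured 0.415 and 0.791 CPM in the VZ and 0.036 and 0 CPM in the ISVZ (log2 fold change −4.93, SE 1.14, adjusted p = 0.0099), while the MZ held 123 and 77.1 CPM. It was the 1 call among 10 Cajal-Retzius features, against 0.111% of all LINC and AS features called lower. The VZ level was thus above the ISVZ level but far below that of the MZ. PAMR1-AS-2, at 0.893 and 0.717 CPM in the VZ and 0.036 and 0.0304 CPM in the ISVZ, had no count in any library of the other 4 layers of E28. PMP22-AS-1 measured 0.51 and 0.396 CPM in the VZ against 0 and 0.0304 CPM, and LINC-NEBL-1 measured 0.797 and 0.198 CPM against 0.036 and 0.0304 CPM. AKAP13-AS-6, ALDH7A1-AS-1, LINC-AACS-1, AAGAB-AS-1 and PSMB7-AS-1 made up the rest, with log2 fold changes of −0.84 to −1.7. Without ISVZ replicate 1, 0 LINC and AS features were called lower by edgeR, with 46 at an unadjusted p under 0.05, and DESeq2 with all libraries called 23.

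The calls of the LINC and AS features chosen by the naming rule were sensitive to single libraries. Of the 29 higher in the ISVZ, 7 stayed called in every alternative that tested them, and of the 12 lower none did. The 7 are DLX6A-AS-1, DLX5-AS-1, LINC-SLC32A1-1, LINC-SLC16A7-1, PLXNA4-AS-9, LINC-REPS1-3 and TYW5-AS-1. DESeq2 gave no adjusted p for CXCL12-AS-1, TRDN-AS-1, LHX6-AS-2, LINC-PLXNA2-1, LINC-MPPED2-5 and PAMR1-AS-2, so that it neither kept nor lost their calls. Among the features higher in the ISVZ, the calls of TRDN-AS-1, LINC-MPPED2-5, LINC-ARHGAP24-1, CADM1-AS-1, GAD2-AS-1, LINC-MEF2C-1, LINC-SEMA6D-12 and ZNF638-AS-1 were also lost without ISVZ replicate 1. Without ISVZ replicate 2, those of LINC-PLXNA2-1, LINC-NEUROD2-1, SCN3A-AS-2, TBC1D1-AS-1, LINC-SEMA6D-12 and ZNF638-AS-1 were lost. Leaving out either VZ library ended the calls of CXCL12-AS-1, TRDN-AS-1, LINC-PLXNA2-1, LINC-MPPED2-5, CADM1-AS-1, GAD2-AS-1, SCN3A-AS-2 and ZNF638-AS-1. Leaving out VZ replicate 1 ended those of LINC-MFAP1A-11, LINC-ARHGAP24-1, GAD1-AS-1, LINC-MEF2C-1 and TBC1D1-AS-1, and leaving out VZ replicate 2 those of LINC-NEUROD2-1 and LINC-SEMA6D-12. CCNB1-AS-1 was lost without VZ replicate 2 or either ISVZ library, and LINC-AQP1-1 without VZ replicate 1 or either ISVZ library.

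**Figure D3:**
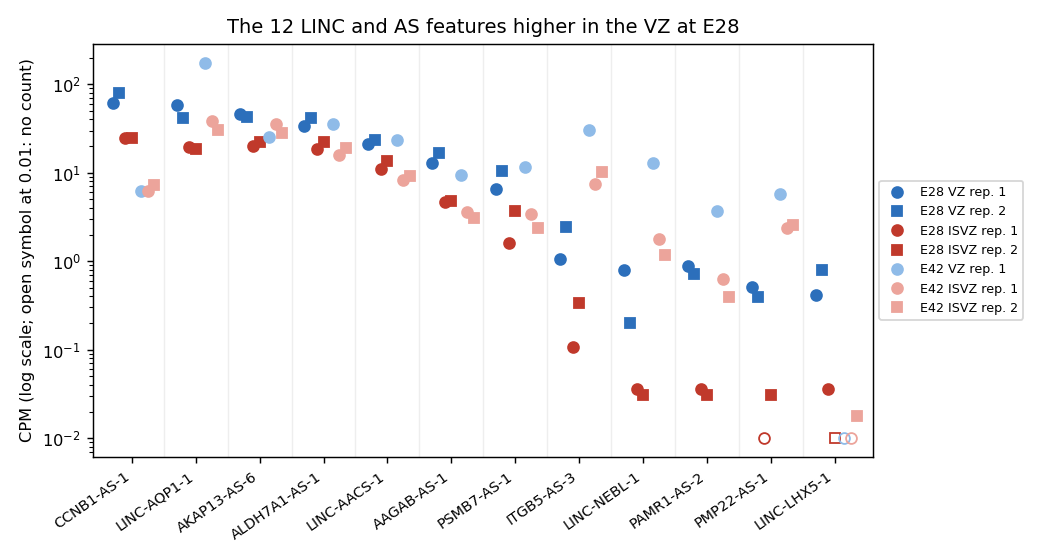
CPM (log axis) of the 12 LINC and AS features called higher in the VZ than the ISVZ at E28, in each VZ (blue) and ISVZ (red) library, with E28 in dark and E42 in light colours, circles for replicate 1 and squares for replicate 2. Open symbols at 0.01 stand for no count. At E28 the 2 VZ libraries lie above the 2 ISVZ libraries in every feature. The layers had no overlap in 382 of the 388 features called lower. In either direction they had none in 40.7% of all features tested and in 2956 of the 10836 LINC and AS features. At E42 CCNB1-AS-1 lies between 6.16 and 7.27 CPM in the 3 libraries of both layers.

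The TSDBGID features with the smallest adjusted p among those called at both E28 and E42 were all higher in the ISVZ. TSDBGID.12290 measured 783 and 751 CPM in the ISVZ and 48.3 and 37.8 CPM in the VZ, a log2 fold change of 4.15 (SE 0.2, edgeR adjusted p = 2.3e-14). TSDBGID.18630 measured 1160 and 791 CPM against 81.7 and 70.3 CPM (log2 fold change 3.68, SE 0.2, adjusted p = 2.1e-13), and TSDBGID.8499 measured 774 and 538 CPM against 39.5 and 41.9 CPM (log2 fold change 4.01, SE 0.23, adjusted p = 5.3e-13). These 3 were higher still in the OSVZ and CP, where TSDBGID.12290 reached 2280 and 2210 CPM and 2480 and 2510 CPM. At lower levels, TSDBGID.5344 measured 51.7 and 37.7 CPM against 2.62 and 2.65 CPM, TSDBGID.13780 39.1 and 30.4 CPM against 3 and 3.56 CPM, and TSDBGID.25919 9.95 and 10.9 CPM against 0.51 and 0.346 CPM. In these 6 features the groups were far apart and the calls stayed in each of the 13 alternatives.

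The TSDBGID features with the largest fold changes varied in how close their replicates were. TSDBGID.4932 measured 16.6 and 13.9 CPM in the ISVZ and 0.51 and 0.42 CPM in the VZ (log2 fold change 5.03, SE 0.47, adjusted p = 6.5e-08), and its call stayed in each of the 13 alternatives. TSDBGID.3909 measured 284 and 101 CPM in the ISVZ and 7.78 and 5.07 CPM in the VZ (log2 fold change 4.91, SE 0.54, adjusted p = 4.9e-06), and TSDBGID.4801 measured 326 and 79.3 CPM against 11.2 and 4.87 CPM (log2 fold change 4.66, SE 0.79, adjusted p = 0.0011). TSDBGID.7337 measured 46 and 6.15 CPM against 0.797 and 0.495 CPM, and TSDBGID.3450 measured 23 and 1.7 CPM against 0.51 and 0.272 CPM. In TSDBGID.3909, TSDBGID.4801, TSDBGID.7337 and TSDBGID.3450 replicate 1 of the ISVZ was well above replicate 2, and TSDBGID.7337 and TSDBGID.3450 were not called when it, or either VZ library, was left out. The largest log2 fold change of all, 10.03 for TSDBGID.27082, rested on 1 library, with 614 CPM in ISVZ replicate 1 against 0.244 CPM in replicate 2 and 0.255 and 0.321 CPM in the VZ. Its groups overlapped, and it was named after its values were seen. Among the most abundant features, TSDBGID.8000 measured 4740 and 3480 CPM in the ISVZ and 1840 CPM in both VZ libraries (log2 fold change 1.16, SE 0.2, adjusted p = 0.00034), and TSDBGID.20709 measured 4170 and 3560 CPM against 1820 and 1680 CPM (log2 fold change 1.14, SE 0.16, adjusted p = 1.1e-05).

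Among TSDBGID features lower in the ISVZ, TSDBGID.8784 was the 1 of 11 chosen by the naming rule whose call stayed in every alternative, at 0.973 and 1.46 CPM in the ISVZ and 9.66 and 10.7 CPM in the VZ (log2 fold change −3.06, SE 0.33, adjusted p = 2e-07). TSDBGID.9691 measured 4.14 and 4.11 CPM in the ISVZ and 51.4 and 30.9 CPM in the VZ (log2 fold change −3.32, SE 0.65, adjusted p = 0.0024), and it was at 0.88 CPM or less in every library of the OSVZ, IZ, CP and MZ. TSDBGID.25478 measured 3.89 and 6.42 CPM against 24.8 and 40.7 CPM, and TSDBGID.7432 2.13 and 2.1 CPM against 15.8 and 7.59 CPM. In these 4 features both VZ libraries lay above both ISVZ libraries, but the calls of TSDBGID.9691, TSDBGID.25478 and TSDBGID.7432 were lost without ISVZ replicate 1. That of TSDBGID.25478 was also lost without VZ replicate 2, and that of TSDBGID.7432 without ISVZ replicate 2 or VZ replicate 1. The largest negative changes among features of at least 5 CPM came from VZ replicate 1, as TSDBGID.3323 stood at 80.3 CPM there and 2.94 CPM in replicate 2, against 1.26 and 0.67 CPM in the ISVZ, and TSDBGID.26165 stood at 28.7 and 0.767 CPM against 0.541 and 0.426 CPM. Neither was called when VZ replicate 1, or either ISVZ library, was left out. TSDBGID.13730, with 1140 and 1080 CPM in the VZ and 669 and 649 CPM in the ISVZ (log2 fold change −0.76, SE 0.18, adjusted p = 0.011), was among the most abundant features lower in the ISVZ, and its call was lost when VZ replicate 1, or either ISVZ library, was left out.

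Across the 6 layers of E28, the features higher in the ISVZ than in the VZ seldom had their highest level in the ISVZ. Of the 805, 279 (34.7%) had the highest mean CPM in the CP, 210 (26.1%) in the MZ, 156 (19.4%) in the OSVZ, 87 (10.8%) in the ISVZ and 73 (9.07%) in the IZ. Over all features tested the corresponding shares were 17%, 25.9%, 9.03%, 14.5% and 11.7%. The VZ, which the direction of the call excludes, was highest for 21.9% of all features. In 624 of the 805 (77.5%) the mean was lowest in the VZ and highest in the OSVZ of the 3 germinal layers, against 20.7% of all features, although the difference between VZ and ISVZ is the one that defined the group. The median log2 CPM of the 805 was 2.89 and 2.85 in the VZ libraries, 4.91 and 4.67 in the ISVZ, 5.61 and 5.42 in the OSVZ and 6.05 and 6.1 in the CP.

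The 388 features lower in the ISVZ had their highest level in the VZ in 311 (80.2%), in the MZ in 50 (12.9%), in the CP in 22 and in the IZ in 5. Of the 3 germinal layers, the mean was highest in the VZ and lowest in the OSVZ in 261 of them (67.3%), against 21.5% of all features. The call itself set the order of VZ and ISVZ, and so in part the share with the highest level in the VZ. The median log2 CPM of the 388 was 6.11 and 6.05 in the VZ, 4.98 and 5.03 in the ISVZ and 4.41 and 4.23 in the OSVZ.

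**Figure D4:**
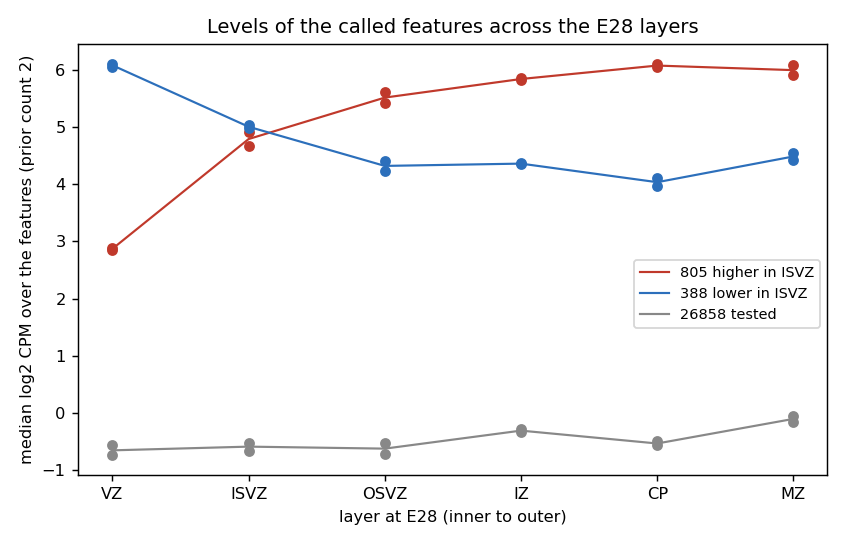
Median log2 CPM (vertical axis) of the 805 features higher in the ISVZ (red), the 388 lower (blue) and all 26858 tested (grey) in each library of the 6 layers of E28 (horizontal axis, from the ventricle outward). Points are libraries and lines join the layer means. The red median rises from 2.89 and 2.85 in the VZ to 6.05 and 6.1 in the CP, and the blue falls from 6.11 and 6.05 in the VZ to 4.11 and 3.96 in the CP.

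The 87 features with their highest E28 level in the ISVZ included DLX6A-AS-1, DLX5-AS-1, GAD2-AS-1 and LINC-SLC32A1-1 among the LINC and AS features. In 70 of the 87 ISVZ replicate 1 was above replicate 2, and in 16 it was more than 2 times as high. Over all 805 features replicate 1 was above replicate 2 in 545. TSDBGID.12573, by contrast, had even replicates, at 26.5 and 28.4 CPM in the ISVZ and 1.28 and 1.48 CPM in the VZ, with means of 19.4 CPM in the OSVZ and 1.74 CPM in the CP. TSDBGID.22854 measured 56.5 and 33 CPM in the ISVZ and 2.87 and 1.58 CPM in the VZ, with a mean of 6.35 CPM in the OSVZ. Both were named after their values were seen.

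The same pair of layers was compared at E42 with 2 ISVZ libraries and 1 VZ library, none of them shared with the E28 comparison. There 2281 features (8.49%) were called, 911 higher in the ISVZ (3.39%) and 1370 lower (5.1%), so that the balance of directions was opposite to that at E28. Of the 805 features higher at E28, 764 (94.9%) had the same sign at E42, 440 (54.7%) were called in the same direction and 5 in the opposite one. With the replicate block 3675 were called at E42. Of the 388 features lower at E28, 344 (88.7%) had the same sign, 265 (68.3%) were called in the same direction and 0 in the opposite one by edgeR. Among all features tested 61% had the same sign at both stages. DLX6A-AS-1 was again higher in the ISVZ at E42, with 1150 CPM in both ISVZ libraries and 80.2 CPM in the VZ library (log2 fold change 3.84, SE 1.11, adjusted p = 0.038). DLX5-AS-1, GAD1-AS-1 and LINC-SLC32A1-1 were called at E42 too, and GAD2-AS-1, LHX6-AS-1 and LHX6-AS-2 were not, with adjusted p of 0.12, 0.1 and 0.099 in edgeR. TSDBGID.9691 stood at 238 CPM in the E42 VZ library and 7.16 and 12.5 CPM in the ISVZ (log2 fold change −4.59, SE 0.72, adjusted p = 0.00018).

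The difference between the stages was tested with an interaction contrast, which called 146 features (0.544%), 35 with a more positive and 111 with a more negative ISVZ to VZ difference at E42. Of the 805 features higher at E28, 41 (5.09%) were among them, and in 38 the difference was smaller or reversed at E42. The E28 difference that chose the 805 is also subtracted in this contrast. A smaller difference at E42 therefore follows in part from the choice, and so does the share called. With the replicate block the interaction called 648 features, and without ISVZ replicate 2 of E42 it called 19. TSDBGID.12290 went from 4.15 at E28 to 1.89 at E42 on the log2 scale, and its VZ level was 347 CPM at E42. LINC-REPS1-3 went from 2.66 to 0.76, and its ISVZ libraries were at 25.2 and 26.4 CPM at E42 and its VZ library at 15.2 CPM (interaction −1.9, SE 0.41, adjusted p = 0.024). TSDBGID.14634 had opposite directions at the 2 stages, from 298 and 384 CPM in the ISVZ and 222 and 166 CPM in the VZ at E28 to 469 and 389 CPM in the ISVZ and 2260 CPM in the VZ at E42 (interaction −3.21, SE 0.33, adjusted p = 2.5e-06). Its E28 call (log2 fold change 0.82, adjusted p = 0.019 in edgeR) was lost without ISVZ replicate 2 or VZ replicate 2, in the fits of the E28 libraries alone and of the groups compared alone, and with all 36 libraries. PLXNA4-AS-9 (3.85 at E28, 2.09 at E42) and CCNB1-AS-1 (−1.54 and 0.13) did not pass the interaction test, with adjusted p of 0.071 and 0.26 in edgeR.

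**Figure D5:**
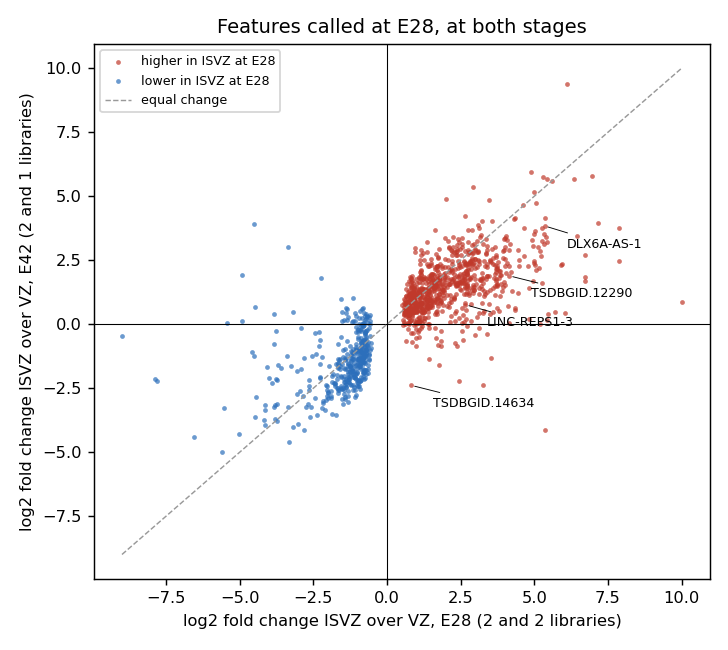
Log2 fold change of ISVZ over VZ at E42 (vertical axis, 2 and 1 libraries) against that at E28 (horizontal axis, 2 and 2 libraries) for the 805 features higher in the ISVZ at E28 (red) and the 388 lower (blue). The dashed line marks equal change. Most points lie in the quadrants of equal sign, 764 of 805 and 344 of 388, while TSDBGID.14634 lies below 0 at E42.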

How the data were processed

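Libraries of mRNA were sequenced from layers that had been cut by laser from the cortex of fetal tree shrews. After adapter trimming, the authors used HISAT to align reads to the genome of this species and assigned them to features with HTSeq-count. The deposited values are whole-number counts per annotated feature, not normalized. HISAT2, SAMtools and HTSeq are named in the submitters' processing notes. The overlap mode and strand setting of the counting are not given in the sources used here. Reads without molecular identifiers were counted, so PCR copies are not told from molecules, and a count of 0 limits counting error only.

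The counter's lines for unassigned reads, 41.82% to 50.83% of a library's reads in the 4 libraries compared, were removed. The filter on low counts was filterByExpr by group (minimum count 10). A negative binomial model with 1 mean for each of 18 groups was fitted to 35 libraries in edgeR 4.0.16 (limma 3.58.1, R 4.3.3), with TMM normalization and the robust quasi-likelihood test, 17 residual degrees of freedom and a common biological coefficient of variation of 0.378. Benjamini-Hochberg adjustment covered all 26858 features in each contrast, with a threshold of 0.05 and no fold threshold. A prior count of 2 entered the log2 CPM values. A fold against a layer with 0 counts in both libraries was computed against 3 counts over that layer. Replicates were not copies of each other, since their counts gave a chi-square of 69.22 per degree of freedom in the ISVZ and 46.38 in the VZ. DESeq2 1.42.0, the tool of the study, was run as an alternative. The code was tested on simulated data in which chosen features had been changed.

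The labels give replicate numbers 1 and 2 in every layer of E28. Deviations from the layer means of libraries with the same number correlated at 0.165 to 0.26 in 15 of 15 pairs of layers (0.26 for ISVZ and VZ). A block by this number was therefore run as an alternative, although the labels do not state what it marks. The fit reported has no such block and treats the libraries as unpaired.

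LINC and AS features were assigned to 24 lists by the symbol in their name. Named TSDBGID features are the 8 of largest absolute log2 fold change in each direction with at least 5 CPM on average and no overlap, and the 3 most abundant in each direction. Named LINC and AS features are the 10 of largest change in each direction with at least 20 counts, the 5 most abundant in each direction, and all called features on a list. The 5 features of smallest adjusted p at both stages, and of the interaction, were added. A few features that the rule selects are not reported here. The comparison, lists and rules were chosen with earlier results of these data known. Alternatives were no filter, a filter on the compared libraries only, DESeq2's size factors, library sizes without the 20 most abundant features, DESeq2, the E28 libraries alone, the compared groups alone, all 36 libraries, the replicate block, a fold threshold and single libraries left out.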

Additional observations from a re-analysis of the deposited data

Results flagged for a closer look

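The ISVZ to VZ difference changed from E28 to E42 in 146 features by the interaction contrast of edgeR, and the named ones among them are listed. Several were named from among the E28 calls, and the E28 difference is subtracted in this contrast. For these, a smaller difference at E42 follows in part from the choice. The E42 side of each rests on 1 VZ library. The changes are E42 minus E28 on the log2 scale. LINC-REPS1-3 changed by −1.9 (SE 0.41, adjusted p = 0.024) and TSDBGID.4932 by −2.72 (SE 0.63, adjusted p = 0.047), and both had a smaller difference at E42. TSDBGID.12290 changed by −2.27 (SE 0.28, adjusted p = 6.4e-05), TSDBGID.18630 by −1.38, TSDBGID.8499 by −1.45, TSDBGID.5344 by −1.68 and TSDBGID.13780 by −1.51, and each of these 5 was higher in the ISVZ at both stages.

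TSDBGID.14634 changed by −3.21, from higher in the ISVZ at E28, a call that was lost in 5 alternatives, to lower at E42. TSDBGID.22291 changed by −2.19, from a log2 fold change of 1.65 at E28 to −0.54 at E42, where the VZ library held 748 CPM and the ISVZ libraries 532 and 498 CPM (adjusted p = 0.18 for E42 in edgeR). TSDBGID.21964 changed by −3.14 and TSDBGID.20210 by 3.1. Neither of these was called at E28, with adjusted p of 0.15 and 0.84 in edgeR, and at E42 TSDBGID.20210 stood at 30.4 and 27.1 CPM in the ISVZ and 2.93 CPM in the VZ. With VZ replicate 2 under both stage labels, the interaction called 24 features, and TSDBGID.21964 and TSDBGID.20210 were not among them.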

How the results depend on the processing

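Of 921 recomputed values for 72 named results, 694 kept their direction and their side of the threshold, 227 kept their direction and lost the call, and 0 changed sign. DESeq2 gave no adjusted p in 7 further cases, which were left out. The counts of calls depended on the setting, and the cause was not tested. DESeq2 called 1959 features, 772 lower, 23 LINC and AS features lower and 552 in the interaction. The 12 libraries of E28 alone gave 704 calls (536 higher, 168 lower, and 35 and 3 LINC and AS features). With all 36 libraries there were 773 calls, 191 lower, 53 and 4 LINC and AS features higher and lower, and 24 in the interaction. The replicate block gave 2244 (1366 higher, 878 lower, and 128 and 19 LINC and AS features), 3675 at E42 and 648 in the interaction, and it ended the call of no named feature. With the groups compared alone, 26 LINC and AS features were higher, 5637 features were called at E42 and 291 in the interaction, and 53.8% of the E28 calls were higher in the ISVZ against 67.5% in the fit reported. With no filter the interaction called 359. Beyond a log2 change of 1 in size, 241 features were lower. Leaving out single libraries gave 553 to 867 calls, 460 to 645 higher and 70 to 240 lower, 38 to 63 LINC and AS features higher and 0 to 6 lower, 1252 to 2255 calls at E42, and 19 to 115 in the interaction. The 87.3% of calls higher in the ISVZ came without ISVZ replicate 1. A layer reduced to 1 library is assumed to vary like the other groups. The E42 contrast could not be run without its 1 VZ library. Changing the scaling moved the share of higher calls to between 66.4% and 68.3%.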
